A study of Mus musculus with 18 samples.

Results

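The Fos, Jun and Egr early genes were taken here as 10 mouse genes, Fos, Fosb, Fosl1, Fosl2, Jun, Junb, Jund, Egr1, Egr2 and Atf3. They were found by symbol among the probes of 18 Agilent expression arrays of mouse uterus, endometrium and endometriotic lesions. All 10 genes were on the array, on 14 probes, out of 22911 genes with a symbol and 56605 probes in all. No member passed the test between genotypes or tissues. Of the 9 members measured on all arrays, 5 had a within-group SD above the 90th percentile of features so measured. Without the PRCre uterus arrays 1 did.

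These genes encode transcription factors, and cells switch many of them, though not all, on within minutes of a stimulus, before new protein is made. FOS and JUN proteins pair through leucine zippers to form AP-1, which binds a palindromic DNA element. EGR proteins bind GC-rich elements with zinc fingers, and ATF3 is a stress-induced relative that pairs with JUN proteins. In the uterus, oestradiol raises Fos and Jun quickly, and the same genes also respond to growth factors, stretch, wounding and the handling of tissue during dissection.

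The PRCre/+ control mice carry a Cre driven from the progesterone receptor gene, and ERBOE mice are described as overexpressing oestrogen receptor beta. The labels name PRCre mice as the control, and the ERBOE line is known to switch its transgene on with the same Cre, so both lines carry it. Uteri were taken at estrus from PRCre and ERBOE females of 12 weeks without surgery. Ectopic lesions grew from PRCre or ERBOE uterine fragments, cut with a 2 mm punch and implanted into wild-type C57BL/6J hosts, so host cells in a lesion were wild type. Eutopic endometrium was taken from PRCre or ERBOE hosts that carried a wild-type fragment. Donors and hosts were 8 weeks old at surgery, and tissue was collected at estrus 4 weeks later. Each array held RNA pooled from 3 animals, and 3 pools from 9 animals made up each of the 6 groups. For ERBOE lesions and ERBOE eutopic endometrium, 1 label speaks of mice without endometriosis, and the eutopic protocol also speaks of collecting lesions, so the grouping followed the sample titles. How long tissues waited between dissection and lysis was not stated.

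Levels are log2 of the processed signal minus log2 of the array's 75th percentile, and a difference of 1 is a 2-fold change. Values of a group are listed in the order of its replicates 1, 2 and 3, a number that names an array and does not order it. The 75th percentile signal was 237 on PRCre uterus replicate 1 and ran from 451 to 740 on the other 17 arrays. The scanner software called 53.2% to 73.0% of probes well above background, and no spot was saturated. Uterine identity markers such as Hoxa10 and Wnt7a were well above background in every group, 9 of 9. In lesions 8 of 9 read lower than in uterus (median -0.37 against -0.08 for all features), and none passed. Against eutopic endometrium 8 of 9 also read lower in lesions (median -0.55 against -0.09), and none passed. Esr2, the gene of oestrogen receptor beta, was not higher in ERBOE than in PRCre by its bright probe, with differences of -0.24 ± 0.20 (SE, n = 3 arrays per group) in uterus, 0.01 ± 0.20 in eutopic endometrium and -0.25 ± 0.20 in lesions. The labels do not say whether that probe reads the transgene, so the genotypes are those of the labels. On 2 arrays the members stood apart from the other arrays of their group. In PRCre uterus replicate 2, 10 of 10 members were above the group mean and 9 were the highest of the group, against 27.5% of all features. In ERBOE lesion replicate 1, 10 of 10 were again above the group mean and 9 were the highest, against 27.3%. Counts and medians over the members that change without these arrays are given both ways below.

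Promoter sequence is shown for 3 of the members whose levels varied most between arrays, since these elements are where serum and cAMP signals act on such genes. RefSeq promoters of GRCm38.p6 were at hand for 8 of the 10 members, with 5 annotated starts for Egr2, and the 250 bases before each of the 12 starts were searched on both strands. The core TGACG of the cAMP response element, bound by CREB and ATF proteins, was found before 7 of the 12 starts, in 5 of 8 genes, and in 17.8% of all 32851 RefSeq promoter windows of that length. Of those 7 starts 3 belong to Egr2, and their windows overlap and hold the same sites. It is in capitals in the windows of Fos and Fosb, which lie on the plus strand of chr12:85473640-85473889 and the minus strand of chr7:19310046-19310295.
Fos: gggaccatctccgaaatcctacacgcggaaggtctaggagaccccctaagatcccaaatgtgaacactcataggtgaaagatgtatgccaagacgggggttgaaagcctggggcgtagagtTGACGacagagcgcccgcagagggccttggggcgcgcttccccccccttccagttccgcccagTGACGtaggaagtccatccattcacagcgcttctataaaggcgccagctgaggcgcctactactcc
Fosb: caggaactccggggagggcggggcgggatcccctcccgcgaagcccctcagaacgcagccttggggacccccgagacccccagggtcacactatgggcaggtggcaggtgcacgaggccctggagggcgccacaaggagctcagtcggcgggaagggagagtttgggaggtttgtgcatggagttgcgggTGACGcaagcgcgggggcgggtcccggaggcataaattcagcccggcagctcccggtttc
In Fos the core lay 129 to 125 and again 66 to 62 bases before the start, and in Fosb 60 to 56 bases before it. The CArG box, the site of serum response factor, was found before 4 of the 5 Egr2 starts, before no start of the other 7 genes, and in 1.47% of all windows. It formed 2 separate sites on the plus strand of chromosome 10, shown in capitals with their flanks. The coordinates given are those of the 30 bases shown, flanks included.
Egr2 CArG box at chr10:67537484-67537513: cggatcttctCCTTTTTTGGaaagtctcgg
Egr2 CArG box at chr10:67537787-67537816: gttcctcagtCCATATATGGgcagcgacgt
The Ets core CCGGAA was found before 1 Egr2 start, against 12.0% of all windows. The full element TGACGTCA (1.55% of windows) and the AP-1 element TGANTCA (6.75%) were found before none of the 12 starts. A match is a string of letters in these windows and shows no binding in these tissues. Bases further upstream were not searched, nor were Fosl1 and Egr1, for which no promoter was at hand. A motif not found here, such as the CArG box in Fos, is therefore absent from these windows only.

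Fos, the AP-1 subunit that is usually absent in resting cells and rises first, had its highest and its lowest level in the same group (probe A_55_P2910184). In the uterus it read -1.09, 3.49 and -0.28 in PRCre and 1.18, 1.60 and 0.94 in ERBOE. In eutopic endometrium it read -0.28, 2.07 and 0.64 in PRCre and 0.39, -0.75 and -0.81 in ERBOE. The 3 PRCre uterus arrays therefore spanned a 23.9-fold range, and the ERBOE uterus arrays fell inside it. In lesions Fos read 0.59, 0.97 and 0.38 in PRCre and 1.44, 0.86 and 0.52 in ERBOE, a span of 1.51-fold and 1.89-fold. Lesion arrays thus lay inside the span of the PRCre uterus arrays.

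Fosb, a FOS relative whose truncated form outlasts the stimulus, was dimmer on its probe (A_55_P2113051) and was at or below -1.85 on 16 of 18 arrays. It read -2.95, -0.19 and -3.35 in PRCre uterus and -2.89, -2.68 and -3.45 in ERBOE uterus. In eutopic endometrium it read -1.85, -2.49 and -3.13 in PRCre and -2.69, -3.23 and -3.0 in ERBOE. In lesions it read -2.80, -3.08 and -3.07 in PRCre and -0.28, -2.66 and -2.30 in ERBOE. The 2 high arrays were PRCre uterus replicate 2 and ERBOE lesion replicate 1, those on which nearly all members were highest. All 3 ERBOE lesion arrays lay above all 3 PRCre lesion arrays for Fosb.

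Fosl1, which encodes FRA1, a FOS relative of wound edges and invasive cells, was well above background on 8 of 18 arrays and on no ERBOE uterus array. Its levels ran from -6.37 to -3.60, with ERBOE lesions at -3.65, -3.72 and -4.98, the last of these not well above background. ERBOE lesions and ERBOE uterus had Fosl1 means of -4.12 and -5.75 (limma adjusted p = 0.308). Only 2 of 3 of these lesion arrays and no such uterus array had it well above background, so no fold is given. Fosl2, which encodes FRA2 and is present in unstimulated tissue, ran over a narrower 3.94-fold range from 1.47 to 3.45. It read 2.71, 3.07 and 2.69 in PRCre eutopic endometrium and 1.88, 2.16 and 1.47 in ERBOE eutopic endometrium, and these groups did not overlap. In uterus it read 2.03, 3.45 and 2.28 in PRCre and 2.36, 2.50 and 2.19 in ERBOE, and in lesions 3.24, 2.06 and 2.75 against 2.70, 2.62 and 2.42. These pairs of groups overlapped, and the highest Fosl2 value of all was again PRCre uterus replicate 2.

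Jun, the main partner of FOS, varied over 2.53-fold in all, from 3.25 to 4.59. In uterus it read 3.28, 3.74 and 3.50 in PRCre and 4.56, 3.77 and 3.91 in ERBOE, groups that only just did not overlap. In eutopic endometrium it read 4.55, 4.42 and 3.35 against 4.20, 4.17 and 3.86, and in lesions 3.47, 3.83 and 3.85 against 4.59, 3.25 and 3.93. ERBOE lesion replicates 1 and 2 held the highest and the lowest Jun value of the series. Junb, a JUN relative that can restrain JUN and is induced with Fos, ran from 1.51 to 3.69. It read 2.12, 3.08 and 2.27 in PRCre uterus and 2.39, 2.99 and 2.31 in ERBOE uterus. In eutopic endometrium it read 1.51, 3.47 and 2.30 in PRCre and 2.45, 1.72 and 1.90 in ERBOE. In lesions it read 2.83, 3.15 and 2.28 in PRCre and 3.69, 2.66 and 2.98 in ERBOE. The high and low Junb arrays of PRCre eutopic endometrium, replicates 2 and 1, were also the high and low arrays of Fos in that group. Jund, which is made constitutively in most tissues, was the steadiest member, with all 18 arrays between 4.07 and 5.03, a 1.95-fold range. Fosb, Fosl2, Junb and Jund each had another, dimmer probe, which was well above background on 1, 13, 14 and 18 of the 18 arrays and was not used in the tests.

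Egr1, a zinc finger factor induced by many of the signals that induce Fos, had the widest range of the 10 genes, 32.5-fold, and all of it lay within PRCre uterus (probe A_51_P367866). It read -2.41, 2.61 and 0.57 in PRCre uterus and -0.43, 0.42 and 1.04 in ERBOE uterus. In eutopic endometrium it read 1.03, 0.10 and -0.35 in PRCre and 0.29, 0.32 and -0.55 in ERBOE. In lesions it read 0.57, -0.12 and -0.25 in PRCre and 1.87, 0.41 and 0.40 in ERBOE. All arrays outside PRCre uterus lay between -0.55 and 1.87. By group mean Egr1 ran from 0.02 ± 0.49 (SD, n = 3) in ERBOE eutopic endometrium to 0.89 ± 0.85 in ERBOE lesions, and neighbouring groups in that order differed by less than the larger of their SDs.

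Egr2, a relative of Egr1 best known for its part in myelination and in lymphocytes, was highest in lesions (probe A_51_P173043). It read 0.02, 0.83 and -1.10 in PRCre lesions and 1.11, 0.02 and -0.24 in ERBOE lesions. In eutopic endometrium it read -1.20, -1.10 and -2.34 in PRCre and -1.11, -1.45 and -1.91 in ERBOE. Of the 6 lesion arrays, 5 lay above all 6 eutopic arrays, and PRCre lesion replicate 3 lay level with the highest of them. In uterus Egr2 read -2.74, 0.78 and -0.85 in PRCre and -1.62, -1.03 and -0.84 in ERBOE, so that PRCre uterus replicate 2 reached the lesion values. The group means were 0.30 ± 0.72 in ERBOE lesions, -0.08 ± 0.97 in PRCre lesions, -0.94 ± 1.76 in PRCre uterus, -1.17 ± 0.41 in ERBOE uterus, -1.49 ± 0.40 in ERBOE eutopic and -1.54 ± 0.69 in PRCre eutopic endometrium (SD, n = 3 each). No neighbours in that order differed by more than the larger of their SDs.

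Atf3, induced by stress and injury and able to repress transcription as a homodimer, was also highest in lesions (probe A_52_P452689). It read 0.18, 0.36 and -1.69 in PRCre lesions and 1.82, -0.50 and 0.12 in ERBOE lesions. In uterus it read -1.48, 0.05 and -2.37 in PRCre and -1.46, -1.75 and -2.36 in ERBOE. All 3 ERBOE lesion arrays lay above all 3 ERBOE uterus arrays, whereas PRCre lesions and PRCre uterus overlapped. In eutopic endometrium Atf3 read 0.29, -0.33 and -2.24 in PRCre and -0.87, -1.60 and -1.14 in ERBOE. All 4 arrays of slide 1, PRCre uterus 3 (-2.37), ERBOE uterus 3 (-2.36), PRCre lesion 3 (-1.69) and ERBOE lesion 2 (-0.50), were the lowest of their group for Atf3, and so was PRCre eutopic replicate 3 on slide 2.

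**Figure D1:**
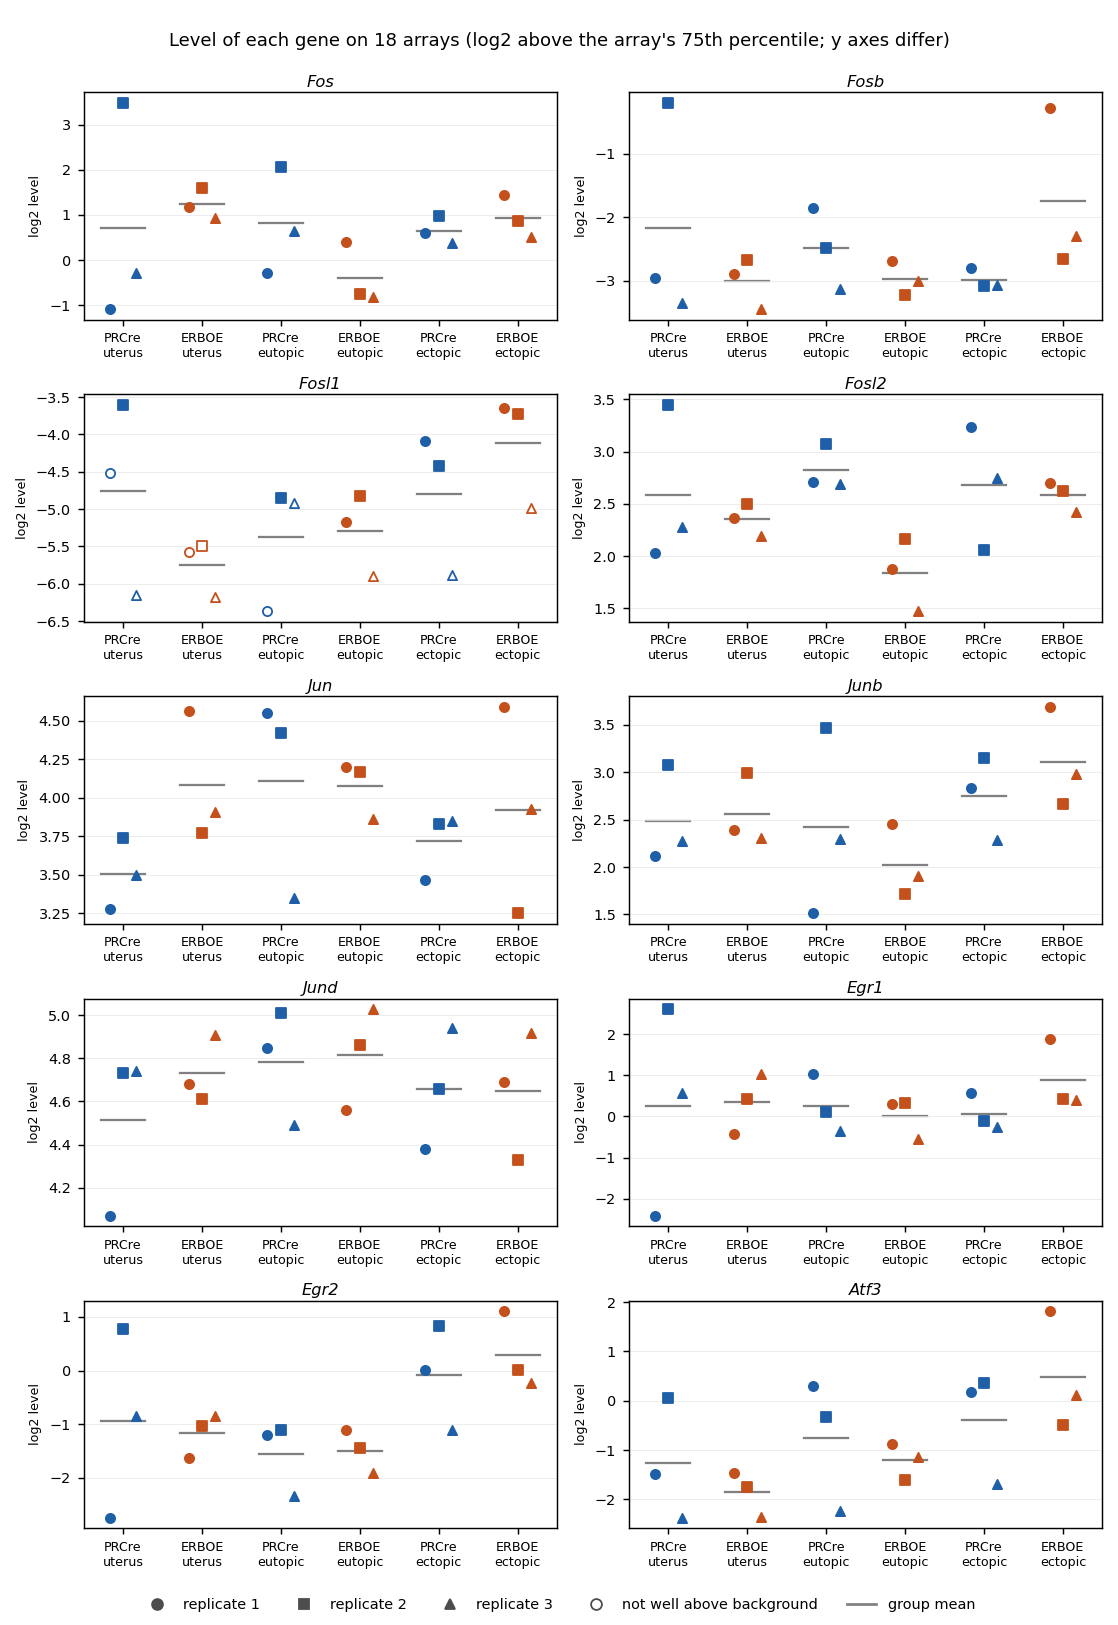
Level of each of the 10 genes on 18 arrays, as log2 signal relative to the array's 75th percentile, by group; blue is PRCre and orange ERBOE, marker shapes give the replicate number, open markers are not well above background, grey lines are means of 3 arrays, and the y axes differ. PRCre uterus spans the widest range for Fos and Egr1, and lesions hold the highest means of Egr2 and Atf3.

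The spread between arrays of 1 group differed widely among the members. Pooled over the 6 groups, the SD within groups was 1.20 for Egr1, 1.17 for Fos, 1.03 for Atf3, 0.95 for Egr2 and 0.94 for Fosb. Among 20308 features well above background on all arrays the median was 0.36 and the 90th percentile 0.73, which these 5 exceeded, of the 9 members measured on all arrays. Fosl2 at 0.43, Jun at 0.45 and Junb at 0.58 lay between the median and that percentile, and Jund at 0.28 lay below the median. Fosl1 (0.85) was not set against these features, since it was well above background on only 8 arrays. Without the 3 PRCre uterus arrays the 90th percentile was 0.70 and 1 of the 9 exceeded it, Atf3 at 0.98, while Fos, Fosb, Egr1 and Egr2 read 0.66 to 0.68, at the 88.3th to 89.2th percentile.

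**Figure D2:**
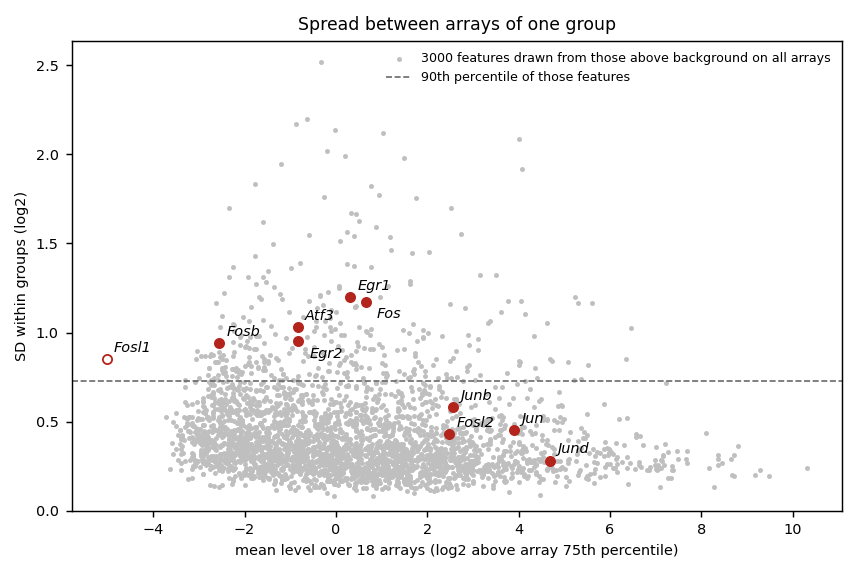
Within-group SD (log2) against mean level for the 10 genes (red) and 3000 other features (grey), with the 90th percentile of all such features dashed. Egr1, Fos, Atf3, Egr2 and Fosb lie above the line and Jund lies lowest of the 10, and Fosl1 is drawn open because it was not well above background on all arrays.

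Array by array, the members moved together. On slide 1, which held 4 arrays and none of eutopic endometrium, the median deviation of the 10 members was negative on each, at -0.26, -0.21, -0.29 and -0.39. PRCre uterus replicate 2 stood above its group mean by 2.78 for Fos, 2.36 for Egr1, 1.97 for Fosb and 1.32 for Atf3, and by a median of 1.24 over the 10 genes. PRCre uterus replicate 1, the dimmest array of the series, was the lowest of its group for 7 members, with a median of -0.50. ERBOE lesion replicate 1 stood above its group mean by a median of 0.62, with 1.47 for Fosb and 1.34 for Atf3. PRCre eutopic replicate 3 was the lowest of its group for 7 members, at a median of -0.45. The 2 other replicates of PRCre eutopic endometrium differed by member, with Fos and Junb highest on replicate 2 and Egr1 and Atf3 on replicate 1.

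Correlations of these deviations between members are given as a description over 18 arrays, which share their normalization and, within a group, their mean. Of 45 pairs of members, 43 were positive, with a median Pearson r of 0.46 and a range from -0.48 (Fosl1 with Jund) to 0.88 (Egr1 with Egr2). Among Fos, Fosb, Egr1, Egr2 and Atf3 the median of 10 pairs was 0.68 and the lowest 0.46. Without PRCre uterus replicates 1 and 2, 34 of the 45 pairs were positive with a median of 0.31, and the 10 pairs had a median of 0.46 and a lowest of -0.06, for Fos with Egr1. Fos with Junb (0.77, then 0.89), Fosb with Atf3 (0.81, then 0.82) and Egr2 with Atf3 (0.66, then 0.72) were as high without those arrays.

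**Figure D3:**
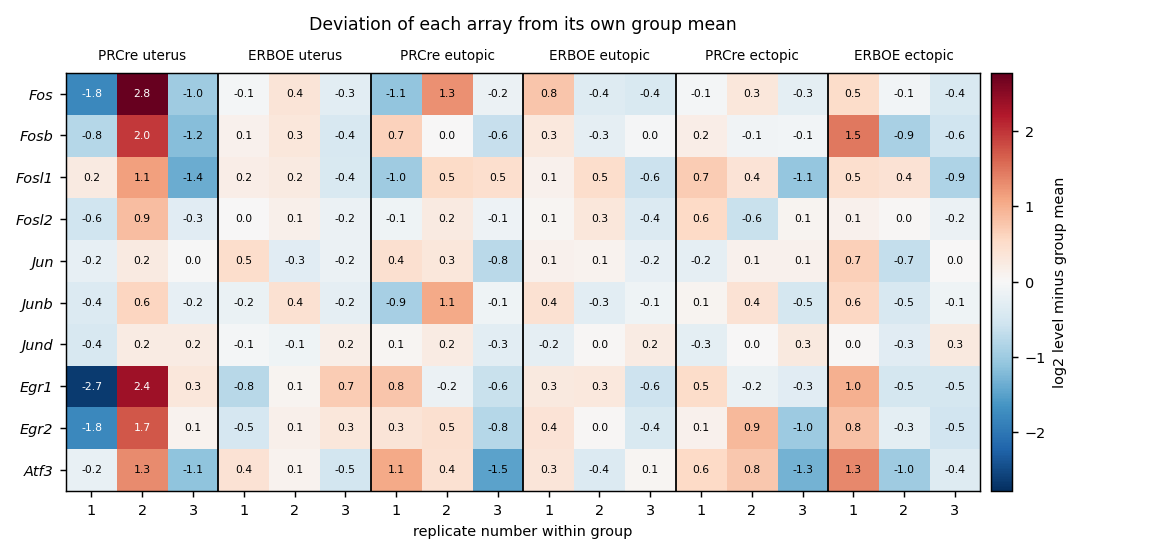
Deviation of each array from the mean of its own group (log2, colour and number) for the 10 genes in rows and the 18 arrays in columns. PRCre uterus replicate 2 and ERBOE lesion replicate 1 are above their group means for all 10 genes, and PRCre uterus replicate 1 is below it for 9.

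Most other immediate-early genes moved the same way on the outlying arrays. Of 40 such genes measured (Nr4a1, Dusp1, Ier2 and others), 33 were above their group mean on PRCre uterus replicate 2 and 33 on ERBOE lesion replicate 1, with medians of 0.51 and 0.35. Nr4a1, an orphan nuclear receptor gene, deviated from its group mean by 3.33 on PRCre uterus replicate 2 and -2.84 on replicate 1. Dusp1, a MAP kinase phosphatase gene, deviated by 1.41 and -1.11. Some genes went the other way on the same 2 arrays, such as Gadd45b (-0.81 and 1.67) and Nr4a3 (-0.10 and 1.33). From replicate 1 to replicate 2 of PRCre uterus, 10 of 10 members and 30 of 40 other early genes were higher on replicate 2, by medians of 1.47 and 1.15, and 52.5% of all features were, by a median of 0. Heat shock genes, which respond to stress through another factor, were higher on replicate 2 in 10 of 12 cases, by a median of 0.63. On ERBOE lesion replicate 1, 4 of 12 heat shock genes were above their group mean, with a median of -0.11.

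Markers of cell types also differed on these arrays. On ERBOE lesion replicate 1, 7 of 7 macrophage markers were above their group mean by a median of 0.52, 4 of 6 neutrophil markers by a median of 1.12 and 8 of 9 smooth muscle markers by a median of 0.71. In PRCre uterus, 7 of 7 macrophage markers were above the group mean on replicate 1 (median 0.66) and 0 of 7 on replicate 2 (median -0.49), the reverse of the early genes. Endothelial markers had medians of -0.64 on replicate 1 and 0.42 on replicate 2, stromal markers -0.74 and 0.29, and erythroid markers -0.75 and 0.51. The part of cell makeup or array brightness in the early gene differences was not tested.

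**Figure D4:**
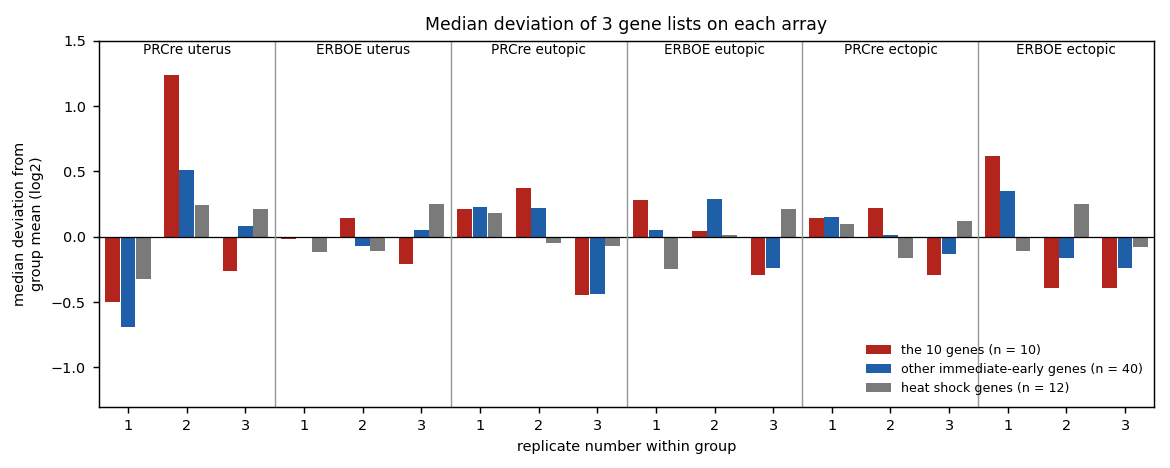
Median deviation from the group mean (log2) of the 10 genes (red), 40 other immediate-early genes (blue) and 12 heat shock genes (grey) on each of the 18 arrays. The red and blue bars are highest on PRCre uterus replicate 2, and both are positive on ERBOE lesion replicate 1, where the grey bar is negative.

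Over all 18 arrays, 12934 named features were ranked by likeness to Egr1 and to Fos, with the members left out beforehand. Those most like Egr1 were led by Nr4a1 (Pearson r = 0.93, Spearman rho = 0.84). They included Nr4a2 (0.82), Slc39a13 (0.87), Adamts4 (0.83) and Dcbld2 (0.83). Without PRCre uterus replicates 1 and 2 these r values were 0.84 for Nr4a1 and 0.51 to 0.73 for the other 4. The features most like Fos were Lrrc27 (0.77), Scyl2 (0.77), Pip5k1a (0.75), Anxa3 (0.74) and Lpo (0.73), with r of 0.52 to 0.71 without those arrays. The members could not appear among these 5, and none of the other immediate-early genes did. The values rank features over the same arrays and have no test.

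The genotype comparisons ask whether the oestrogen receptor beta line differs from its control in each tissue, and in limma 0 of 10 members passed the adjusted threshold of 0.05 in any of them. In each tissue 0% of all 33455 features tested passed, and 9.92%, 2.97% and 4.43% had an unadjusted p under 0.05 in uterus, eutopic endometrium and lesions. In uterus 5 members were higher and 5 lower in ERBOE, where 40.1% of all features were higher. Without PRCre uterus replicate 1 that count was 1 higher and 9 lower, with a median of -0.60, and without replicate 2 it was 9 higher and 1 lower, with a median of 0.35. Jun read 0.57 ± 0.36 higher (95% interval -0.19 to 1.34, adjusted p = 0.617), and its groups did not overlap, as was so for 15.1% of features. Fosl1 was well above background on 1 of 3 PRCre and 0 of 3 ERBOE uterus arrays, so no difference is given for it. Fos read 0.53 ± 0.88 and Egr1 0.08 ± 0.90, and without PRCre uterus replicate 1 they read -0.36 and -1.25, whereas without replicate 2 they read 1.92 and 1.26. The direction of both therefore rested on those 2 arrays. Within slides, each of which held 1 uterus array of each genotype, Fos differed by 1.22, -1.89 and 2.26.

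In eutopic endometrium 7 of 10 members were lower in ERBOE, by a median of -0.32, where 49.0% of all features were higher and their median was -0.01. Fosl2 read -0.99 ± 0.35 (95% interval -1.74 to -0.23, limma unadjusted p = 0.0138, adjusted p = 1), lower on 3 of 3 arrays, a lack of overlap shared by 9.22% of features. Over the arrays left out in turn Fosl2 ran from -1.15 to -0.80, and on slides 2 and 3, with arrays of either genotype, it differed by -0.80 and -1.08. Fos read -1.20 ± 0.88, from -1.75 to -0.57 with single arrays left out, and its groups overlapped. In lesions 8 of 10 members were higher in ERBOE, by a median of 0.37 against -0.05 for all features, of which 44.1% were higher. Without ERBOE lesion replicate 1 it was 6 of 10, by a median of 0.05 against -0.06. Fosb read 1.23 ± 0.71 (95% interval -0.28 to 2.75, adjusted p = 0.994) and its groups did not overlap, as in 11.5% of features. Without ERBOE lesion replicate 1 it read 0.50. Atf3 read 0.87 ± 0.78, Egr1 0.83 ± 0.90 and Junb 0.35 ± 0.45, and without that array they read 0.20, 0.34 and 0.06. Jund differed by -0.01 ± 0.25, with a 95% interval from -0.54 to 0.52.

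**Figure D5:**
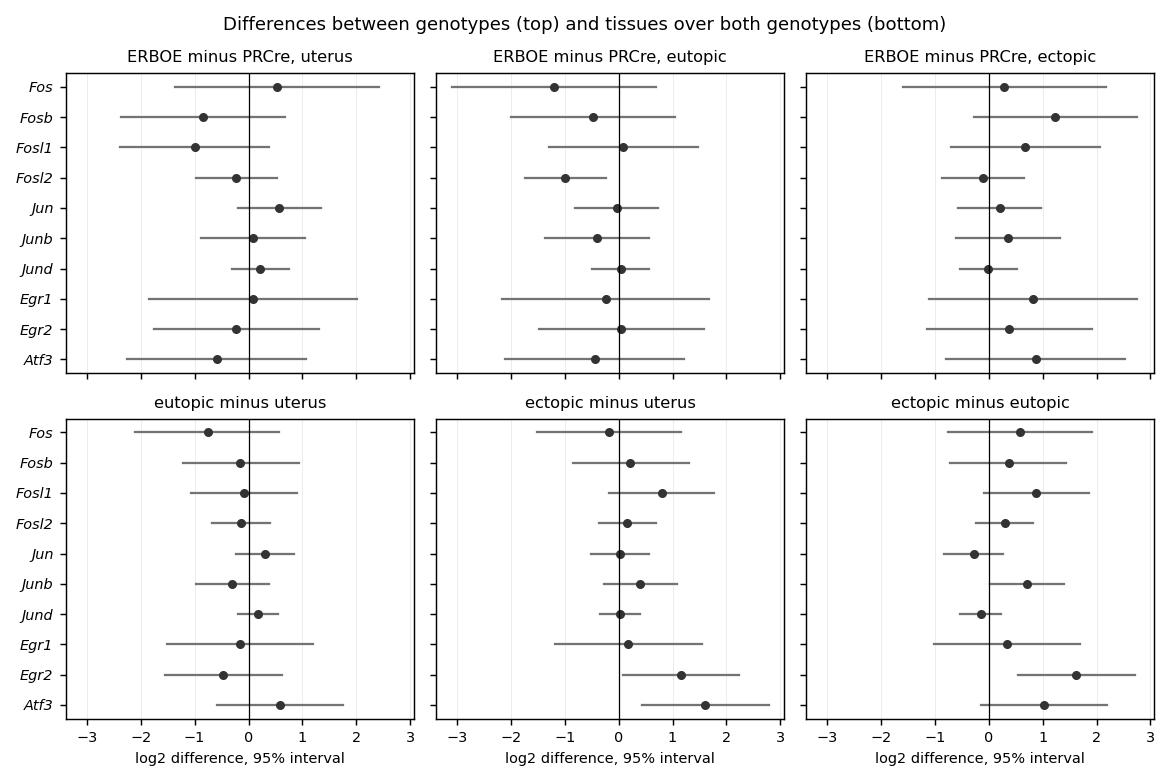
Differences in log2 level with 95% intervals from limma for the 10 genes, ERBOE minus PRCre in 3 tissues (top) and between tissues over both genotypes (bottom). Intervals that leave out 0 are those of Fosl2 by genotype in eutopic endometrium, Egr2 and Atf3 in ectopic minus uterus, and Egr2 and Junb in ectopic minus eutopic, none of which passed after adjustment over all features.

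Between tissues, over both genotypes together, Egr2 and Atf3 read higher in ectopic lesions than in eutopic endometrium or uterus, without passing the adjusted threshold. In ectopic lesions against eutopic endometrium, over 6 arrays each, Egr2 read 1.62 ± 0.51 higher (95% interval 0.54 to 2.71, limma unadjusted p = 0.00611, adjusted p = 0.169). It passed in 1 of the 10 other settings, array weights, at 1.72 (adjusted p = 0.0289). The difference was 1.46 ± 0.72 in PRCre and 1.79 ± 0.72 in ERBOE, and the difference between the genotypes in it, 0.33 ± 1.01, did not pass (adjusted p = 1). Within slides Egr2 differed by 1.93 on slide 2 and 2.53 on slide 3, where the 1 lesion array was the outlying ERBOE lesion replicate 1. With the slide as a block it read 1.56 ± 0.59 (adjusted p = 0.248). Junb read 0.71 ± 0.32 higher (adjusted p = 0.381) and Atf3 1.03 ± 0.55 (adjusted p = 0.471), and with the slide as a block they read 0.78 ± 0.34 and 1.67 ± 0.48 (adjusted p = 0.323 and 0.133). By genotype Atf3 differed by 0.38 ± 0.78 in PRCre, where lesion and eutopic arrays overlapped, and by 1.68 ± 0.78 in ERBOE. Over the 10 members, 8 were higher in lesions by a median of 0.48 (0.36 without ERBOE lesion replicate 1), where 39.3% of all features were higher and the median was -0.09, and 0 of 10 passed where 1.27% of features did. At an unadjusted p under 0.05 there were 2 members, Egr2 and Junb, against 12.4% of features. Jun (-0.27 ± 0.25) and Jund (-0.15 ± 0.18) were the 2 members that read lower.

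The same contrast was split by genotype. In ERBOE, all 3 lesion arrays lay above all 3 eutopic arrays for 7 of 10 members, Fos, Fosb, Fosl2, Junb, Egr1, Egr2 and Atf3, where 7.15% of features did so. The members are not independent of each other, as their deviations show. None of the 7 passed (0.616% of features did), with adjusted p from 0.384 to 0.811, and the median difference over the 10 members was 1.13 against -0.12 for all features, or 0.74 against -0.10 without ERBOE lesion replicate 1. In PRCre, 0 of 10 members separated in this way and 2.91% of features did, with a median of -0.13 against -0.06, and 0.00299% of features passed. Over these contrasts 8 members were higher in ERBOE and 4 in PRCre, where 39.1% and 41.7% of features were. The test of that difference between genotypes called 0 of 10 members and 0% of features, with 9 of 10 members on the ERBOE side, or 7 of 10 without that array. Without ERBOE lesion replicate 1 the ERBOE differences of Egr2, Atf3 and Junb were 1.38, 1.01 and 0.79, against 1.79, 1.68 and 1.08.

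Against uterus, Atf3 read 1.61 ± 0.55 higher in lesions over both genotypes (95% interval 0.44 to 2.78, limma unadjusted p = 0.0105, adjusted p = 0.15), and from 1.28 to 1.94 with single arrays left out. With the slide as a block it read 1.68 ± 0.43 (adjusted p = 0.0662). In ERBOE it read 2.34 ± 0.78 higher (adjusted p = 0.192), a 5.06-fold change, and passed with array weights at 2.44 (adjusted p = 0.039). In PRCre it read 0.88 ± 0.78 (adjusted p = 0.726), and the difference between the genotypes, 1.46 ± 1.1, did not pass (adjusted p = 0.865). Within slides Atf3 differed by 1.27, 1.07 and 3.29, the last with 1 lesion array, the outlying ERBOE lesion replicate 1. Egr2 read 1.16 ± 0.51 higher (limma unadjusted p = 0.0377, adjusted p = 0.271), but 1.59 without PRCre uterus replicate 2 and 0.71 without replicate 1. Fos read -0.18 ± 0.62 and turned to 0.51 without PRCre uterus replicate 2, so no direction is given for it. Of all features 2.08% passed in this contrast over both genotypes, 1.23% in ERBOE and 0.00897% in PRCre, and 0 of 10 members did in each. At an unadjusted p under 0.05 there were 2 members against 16.2% of features, and 9 of 10 members read higher, as did 41.4% of features. Without ERBOE lesion replicate 1 or PRCre uterus replicate 1 it was 6 of 10, and without PRCre uterus replicate 2 it was 10 of 10. Between eutopic endometrium and uterus 0 of 10 members passed, with 0% of features passing and 4.02% at an unadjusted p under 0.05. There 3 members read higher (7 without PRCre uterus replicate 2), against 52.4% of features. Differences ran from -0.76 ± 0.62 for Fos to 0.58 ± 0.55 for Atf3. With the slide as a block these 2 read -0.79 ± 0.65 and 0.01 ± 0.46. Within slides 2 and 3 Atf3 differed by -0.71 and 0.77.

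Genes outside the family moved in the lesion comparisons. Genes with textbook AP-1 sites in their control regions rose in lesions for 4 of 15 against uterus and 4 of 15 against eutopic endometrium. Of all features 2.08% and 1.27% passed there, either way. The list medians were 1.61 and 1.58 against -0.08 and -0.09 for all features, and 0 fell past the threshold. By genotype 1 of 15 passed in ERBOE and 0 of 15 in PRCre in each contrast. Spp1, the osteopontin gene, rose by 3.59 ± 0.70 against uterus (adjusted p = 0.0158) and by 3.05 ± 0.70 against eutopic endometrium (adjusted p = 0.0485). Timp1, a metalloproteinase inhibitor gene, rose by 1.93 ± 0.44 and 2.31 ± 0.44, and Hmox1, the gene of haem oxygenase 1, by 1.76 ± 0.38 and 1.89 ± 0.38. Mmp3, the stromelysin 1 gene, rose by 2.24 ± 0.54 against uterus, and Mmp13, a collagenase gene, rose against eutopic endometrium, where no array had it well above background. Most of these genes have other regulators too, and several are made by macrophages. Of 40 other immediate-early genes, Sgk1, a serum and glucocorticoid-induced kinase gene, rose by 0.98 ± 0.23 in lesions against uterus over both genotypes (adjusted p = 0.0496). In ERBOE alone Klf4, a zinc finger factor gene named here after its value was seen, fell by 1.94 ± 0.40 in lesions against uterus (adjusted p = 0.0285), and no other of the 40 passed in any of the 15 comparisons. In the 3 genotype comparisons and the 3 tissue comparisons over both genotypes, none of 11 AP-1 partners and relatives, 19 upstream kinases, factors and Egr corepressors or 12 heat shock genes passed.

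Markers of other cell types differed in the same contrasts. Adipocyte markers rose in lesions for 8 of 9 genes against uterus and against eutopic endometrium, with medians of 6.30 and 5.41. All 9 were well above background in lesions. Both medians are those of Plin1, which was well above background on no uterus array and on 2 of 3 arrays in each eutopic group. These sizes therefore rest in part on values near background. The mean level over the 9 adipocyte markers was 1.02 to 3.09 in PRCre lesions and 3.10 to 3.56 in ERBOE lesions, against -3.55 to 0.00 on the uterus and eutopic arrays. Fabp4, a fatty acid binding protein gene, rose by 6.76 ± 0.89 against eutopic endometrium, and Cfd, the adipsin gene, by 6.63 ± 1.16. Neutrophil markers rose for 2 of 6 genes, S100a8 and S100a9, by 4.76 ± 0.94 and 4.86 ± 1.08 against eutopic endometrium. Of the 6 neutrophil markers, 5 read higher and 1 lower in lesions than in eutopic endometrium, and 3 higher and 3 lower than in uterus. Their mean level over 6 markers ran from 0.54 to 2.04 in ERBOE lesions, -0.61 to 0.00 in PRCre lesions and -3.15 to -0.13 on all other arrays. Of 7 macrophage markers 0 passed, with a median of 0.95 against eutopic endometrium and mean levels of 2.77 to 4.58 in lesions and 2.22 to 3.47 elsewhere. Of 5 skeletal muscle markers 1 rose in lesions against uterus, Myl1, a fast-fibre myosin light chain gene, by 2.22 ± 0.52 (adjusted p = 0.039), and 4 read lower. The mean level over the 5 markers was -2.27 to -1.3 in lesions and -2.83 to -1.50 elsewhere. In whole tissue, more cells of a type and more RNA per cell cannot be told apart. The part of these cells in the Egr2, Atf3 and Junb values was not tested.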

How the data were processed

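RNA pools of mouse uterus, eutopic endometrium and ectopic lesions were hybridised to 1-colour Agilent arrays, 3 per group. Per the file headers, the authors' scanner files came from Feature Extraction 11.0.1.1 with a grid built on mm9, and the deposited processed signal is an intensity, background-subtracted by that software. The deposited value table holds log2 values of the same arrays, made by steps the labels and headers do not name. It served as an alternative.

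From the intensity, log2 minus the array's 75th percentile was taken over non-control spots, and spots of a probe were averaged. Features well above background on at least 3 of 18 arrays were kept, with the brightest probe per symbol. This left 33455 features, 18014 of them with a symbol. limma 3.58.1 in R 4.3.3 fitted 6 group means over all 18 arrays (lmFit, eBayes, residual df 12, prior df 2.48), with Benjamini-Hochberg adjustment over all features of a comparison and a threshold of 0.05. Tests were 2-sided, and the fitting code was tested on simulated data. No label says that pools of a group were prepared apart, so p-values measure the spread between these pools. The number of arrays, 3 per group, limits the precision.

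Alternatives were normexp (offset 50, on median spot signals), quantile or array-median normalization, no filter or a filter on all 18 arrays, slide or replicate number as a block, the mean of a gene's probes, array weights, the deposited value table, and each array left out in turn. Slide and scan coincide, in 3 slides. Slide 1 held no eutopic array and slide 3 no PRCre lesion array. Deviations of same-numbered arrays correlated from -0.51 to 0.52. In 2 of 15 pairs of groups every such correlation was above 0.1, PRCre with ERBOE uterus (where a number is also a slide) and PRCre lesions with PRCre eutopic endometrium, and these were also fitted with the number as a block on their 6 arrays, a fit added after the data were seen. In the other 13 the numbers were not treated as pairs.

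The members and lists were chosen with earlier results of these data known. Named were all members and, from each other list, up to 4 genes each way past the threshold. The 5 features outside the members most like Fos and like Egr1 were also named, and Esr2 as a check of the labels. Nr4a1, Nr4a2, Nr4a3, Dusp1 and Gadd45b were also named as other early genes after their values were seen. Promoters are RefSeq's on GRCm38.p6. The core TGACG, part of the full element TGACGTCA, was added to the motifs after the search for the others.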

Additional observations from a re-analysis of the deposited data

Results flagged for a closer look

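The second Fosb probe (A_55_P2744102), which entered no test, was well above background on 1 of 18 arrays, ERBOE uterus replicate 2, at -2.53. On the other 17 arrays it was not well above background. On the same array the Fosb probe used in the tests read -2.68, close to the other ERBOE uterus arrays at -2.89 and -3.45.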

How the results depend on the processing

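Of the members, Egr2 in ectopic minus eutopic (1.72, adjusted p = 0.0289) and Atf3 in ectopic minus uterus in ERBOE (2.44, adjusted p = 0.039) passed in limma with array weights, which give outlying arrays less influence. In every other setting, arrays left out included, 0 members passed and the smallest adjusted p was 0.0635. With the replicate number as a block the count of calls in ectopic minus uterus in PRCre was 15 against 3, and it moved no other count by over 1.5 times and changed no member's call. With the number as a block on 6 arrays alone, chosen after seeing the data, 0 features passed for genotype in uterus and 0 for ectopic minus eutopic in PRCre, against 0 and 1, and the smallest adjusted p of a member was 0.411 and 0.905. Outside the arrays left out, 23 member values turned sign, 2 became calls and 696 kept side and sign.

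Counts of features past the threshold moved as follows. Normexp gave 2 for genotype in lesions, 1 for eutopic minus uterus in PRCre, 138 for ectopic minus uterus in PRCre and 7 for ectopic minus eutopic in PRCre. Quantile normalization and the array median gave 44 and 36 for ectopic minus uterus in PRCre. The filter on all 18 arrays, which tests fewer features, gave 1 for genotype in lesions, 241 for ectopic minus eutopic, 9 for ectopic minus uterus in PRCre, and 0 and 122 for ectopic minus eutopic in PRCre and ERBOE. Array weights gave 14 and 6 for genotype in uterus and lesions, 2246 for ectopic minus uterus, 1281 for ectopic minus eutopic, 80 and 2374 for ectopic minus uterus in PRCre and ERBOE, and 30 and 1218 for ectopic minus eutopic in PRCre and ERBOE. The cause was not tested.

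With single arrays left out, the counts ran from 0 to 16 for genotype in uterus, 0 to 1 in eutopic endometrium and 0 to 5 in lesions, and 0 to 2 for eutopic minus uterus. They ran from 353 (without ERBOE lesion replicate 1) to 1275 (without PRCre lesion replicate 3) for ectopic minus uterus and from 217 to 703 for ectopic minus eutopic, at the same arrays. By genotype they ran from 0 to 8 (PRCre) for eutopic minus uterus, 1 to 64 (PRCre) and 122 to 539 (ERBOE) for ectopic minus uterus, 1 to 51 (PRCre) and 67 to 260 (ERBOE) for ectopic minus eutopic, and for the differences between genotypes 0 to 1 in eutopic minus uterus and 0 to 2 in ectopic minus uterus.

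Values that turned sign were small in most cases. With normexp they were Fosb -0.06 and Fosl1 -0.05 in ectopic minus uterus, Fosl1 -0.24 and Egr2 -0.0006 by genotype in eutopic endometrium, Jund 0.04 in lesions and Egr1 -0.25 in uterus. With quantile normalization they were Fosl1 -0.02 by genotype in eutopic endometrium and 0.07 in eutopic minus uterus. With the array median Jun was 0.004 by genotype in eutopic endometrium and Jund 0.01 in lesions, and with the slide as a block Egr1 was 0.01 in eutopic minus uterus. With the mean of probes Fosl2 was 0.01 and Jund 0.06 by genotype in lesions, Junb -0.21 in uterus and Jund -0.06 in ectopic minus uterus. With array weights Fos was -0.26 and Egr1 -1.07 by genotype in uterus, Fosl1 -0.003 and Jun 0.07 in eutopic endometrium, Jund 0.20 in lesions, and Fosb -0.03, Jund -0.02 and Egr1 -0.22 in ectopic minus uterus.

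Leaving out single arrays turned these, given from lowest to highest. By genotype in uterus they were Fos -0.36 to 1.92, Fosb -1.44 to 0.14, Fosl2 -0.51 to 0.20, Junb -0.14 to 0.37, Jund -0.0007 to 0.33, Egr1 -1.25 to 1.26, Egr2 -1.13 to 0.63 and Atf3 -1.15 to 0.07. By genotype in eutopic endometrium they were Fosl1 -0.40 to 0.39, Jun -0.41 to 0.19, Junb -0.86 to 0.12, Jund -0.11 to 0.16, Egr1 -0.54 to 0.14, Egr2 -0.34 to 0.28 and Atf3 -1.18 to 0.08. By genotype in lesions they were Fosl2 -0.41 to 0.17, Jun -0.13 to 0.54, Jund -0.15 to 0.15 and Egr2 -0.13 to 0.84. In eutopic minus uterus they were Fosb -0.44 to 0.35, Fosl1 -0.43 to 0.20, Fosl2 -0.28 to 0.08 and Egr1 -0.82 to 0.43. In ectopic minus uterus they were Fos -0.63 to 0.51, Fosb -0.15 to 0.71, Jun -0.14 to 0.19, Jund -0.08 to 0.11 and Egr1 -0.49 to 0.77. In PRCre alone Egr2 ran from -0.05 to 1.71 in ectopic minus uterus, and Atf3 from -0.36 to 1.03 and Junb from -0.13 to 0.85 in ectopic minus eutopic. Signal over background limits Fosl1 most, with 8 of 18 arrays well above it.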
